A study of Homo sapiens with 30 samples.

Results

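The mRNAs described here encode proteins of the small (40S) subunit of the cytosolic ribosome. They were taken as a list of 28 gene symbols, pseudogenes left out, and all 28 had a row among the 16009 genes of the deposited table. The table comes from m6Am-Exo-Seq, in which capped 5' ends are kept by an exonuclease step and those with a methylated adenosine are then captured with an m6A antibody that recognises m6Am too. The cells were MEL624, a human melanoma line, with a knockout (KO) of PCIF1 or, as control, wild type with a random sgRNA. The 12 libraries used form 4 groups of 3, namely KO immunoprecipitations (KO IPs), KO inputs, control IPs and control inputs, and all IPs used antibody 4, a mouse monoclonal. Replicates are biological according to the series design, whether from 1 KO clone or several is not stated, and an effect of the knockout and of a clone cannot be told apart. Values are relative to the reads of each library (CPM), and less of an mRNA per cell and fewer cells that make it cannot be told apart either.

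PCIF1 adds a methyl group to the first transcribed adenosine beside the mRNA cap and so makes m6Am. Most mRNAs of ribosomal proteins instead start with a cytidine followed by a run of pyrimidines, the 5' terminal oligopyrimidine (TOP) motif, through which mTORC1 signalling and the cap-binding protein LARP1 control their translation. A transcript that starts with cytidine has no first adenosine for PCIF1 to methylate. Antibodies against m6A also bind m6A inside an mRNA.

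The annotated starts show how far the mRNAs follow this rule. RefSeq start sequences were at hand for 25 of the 28, and RPS2, RPS15A and RPS20 are the others. Of the 25, 20 begin with C, 3 with A, 1 with G and 1 with T. A TOP start, here a C followed directly by at least 4 more pyrimidines on the sense strand, was found in 18 of 25, against 5.69% of the 9681 protein-coding genes of the table that have a RefSeq start. Runs in these 18 were 6 to 14 bases long. The sequences below span 10 bases before the start and 20 from it, and the capitals mark the run of pyrimidines from the first base, or the first base alone where it is a purine. An annotated start is not a measured one, and reads of other starts of the gene may count in its row. The first set holds TOP starts that the antibody strongly depleted in control cells.
RPSA (GRCh38.p14, chr3:39406710-39406739, plus strand): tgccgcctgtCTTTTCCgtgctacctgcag
RPS16 (GRCh38.p14, chr19:39435930-39435959, minus strand): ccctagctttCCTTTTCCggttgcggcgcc
RPS12 (GRCh38.p14, chr6:132814559-132814588, plus strand): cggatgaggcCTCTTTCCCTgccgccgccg
RPS18 (GRCh38.p14, chr6:33272065-33272094, plus strand): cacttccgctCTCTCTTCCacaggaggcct
The next set has TOP starts of the same kind that were not depleted in control cells.
RPS9 (GRCh38.p14, chr19:54200848-54200877, plus strand): gcttccgcgcCTCTTTCTCagtgaccgggt
RPS24 (GRCh38.p14, chr10:78033853-78033882, plus strand): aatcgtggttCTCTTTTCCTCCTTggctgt
RPS19 (GRCh38.p14, chr19:41860245-41860274, plus strand): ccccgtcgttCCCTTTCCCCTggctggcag
RPS10 (GRCh38.p14, chr6:34426050-34426079, minus strand): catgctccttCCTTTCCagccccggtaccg
The last set has annotated starts with no TOP motif.
RPS15 (GRCh38.p14, chr19:1438386-1438415, plus strand): aggcgcggacCaaagcgatctcttctgagg
RPS4X (GRCh38.p14, chrX:72277229-72277258, minus strand): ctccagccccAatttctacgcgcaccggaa
RPS26 (GRCh38.p14, chr12:56041908-56041937, plus strand): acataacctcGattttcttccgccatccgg
RPS28 (GRCh38.p14, chr19:8321486-8321515, plus strand): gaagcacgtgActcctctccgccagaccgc
RPS27A (GRCh38.p14, chr2:55231893-55231922, plus strand): agtgacacacAagacccagactcttcccta
RPS7 (GRCh38.p14, chr2:3575250-3575279, plus strand): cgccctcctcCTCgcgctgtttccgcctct
RPS15 has a single C followed by purines, RPS4X, RPS28 and RPS27A begin with A, and RPS26 begins with G. In RPS7 the run ends after 3 bases. The RPS27A start printed here lies 785 bases from that of the canonical GENCODE transcript. For RPS29, not printed here, the canonical GENCODE transcript starts 12784 bases from the start of the gene record. The RefSeq start of RPS29 lies 454 bases from that of the record. The RefSeq start lies more than 100 bases from the start of the GENCODE gene record in 5 members, RPS24, RPS25, RPS26, RPS28 and RPS29, and which start the authors' counting window followed is not given in the sources used here.

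Reads behind the table, recovered from the log2 values, came to 1753164 to 2177874 in the KO IPs, 2836120 to 3544669 in the KO inputs, 4035815 to 4625190 in the control IPs and 3232562 to 4094070 in the control inputs. The KO IPs were thus the shallowest libraries. Of 9 markers of the melanocyte lineage, MITF and MLPH are among the rows read here, and they summed to 36.5 to 41.2 CPM in KO inputs and 43.6 to 57.1 CPM in control inputs. The other 7 markers, and all 16 markers of keratinocytes, fibroblasts, leukocytes and endothelium, were looked up by name and matched no row. Nothing was therefore measured for them here.

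In the inputs, small-subunit mRNAs held similar shares of the reads in both genotypes. They made up 2.83%, 2.80% and 2.44% of all reads in the KO inputs, against 2.74%, 2.65% and 2.57% in the control inputs, and the groups overlapped. In the IPs they held 1.77%, 1.68% and 1.69% in KO cells, against 0.831%, 0.833% and 0.782% in control cells. Every KO IP thus held a larger share of these reads than every control IP, and every IP a smaller share than every input. Large-subunit mRNAs likewise held a larger mean share in KO IPs than in control IPs and smaller ones in IPs than in inputs, with 3.37% ± 0.183 in KO IPs and 5.20% ± 0.508 in KO inputs, against 1.89% ± 0.0529 in control IPs and 5.25% ± 0.232 in control inputs (SD, n = 3 each).

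**Figure D1:**
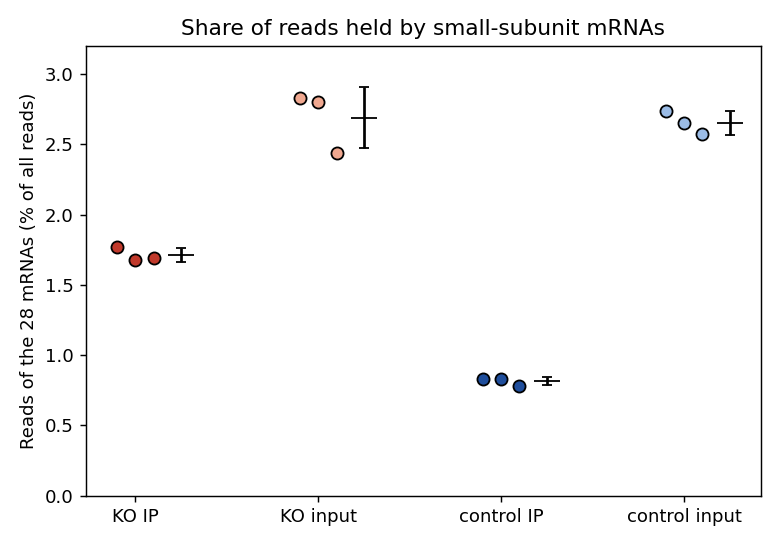
Each point is 1 library and gives the reads of the 28 small-subunit mRNAs as a percentage of all recovered reads, with the group mean and SD (n = 3) beside the points. The KO IPs lie at 1.68% to 1.77%, between the control IPs at 0.782% to 0.833% and the inputs of both genotypes at 2.44% to 2.83%.

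Reads were spread unevenly over the members. RPS16 alone held 22.7% of the members' reads in KO inputs and 21.1% in control inputs, and with RPS20 and RPS2 it made up 52.2% in KO inputs and 50.4% in control inputs. At the low end stood RPS26, with 19 reads in its shallowest KO input and 38 in its shallowest control input. Levels differ between genes on the scale of CPM at the start region, whose length is not given in the sources used here, so that they cannot be read as mRNA abundance. In the IPs the order was different. RPS15A led with 24.2% of the members' reads in KO IPs and 19.9% in control IPs, followed by RPS9, and the pair held 44.5% in KO IPs and 32.1% in control IPs. RPS27 and other members have processed pseudogenes or close paralogs. The table has 46 rows of pseudogenes named after 22 of the members, and how reads that fit more than a single copy were counted is not given in the sources used here.

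**Figure D2:**
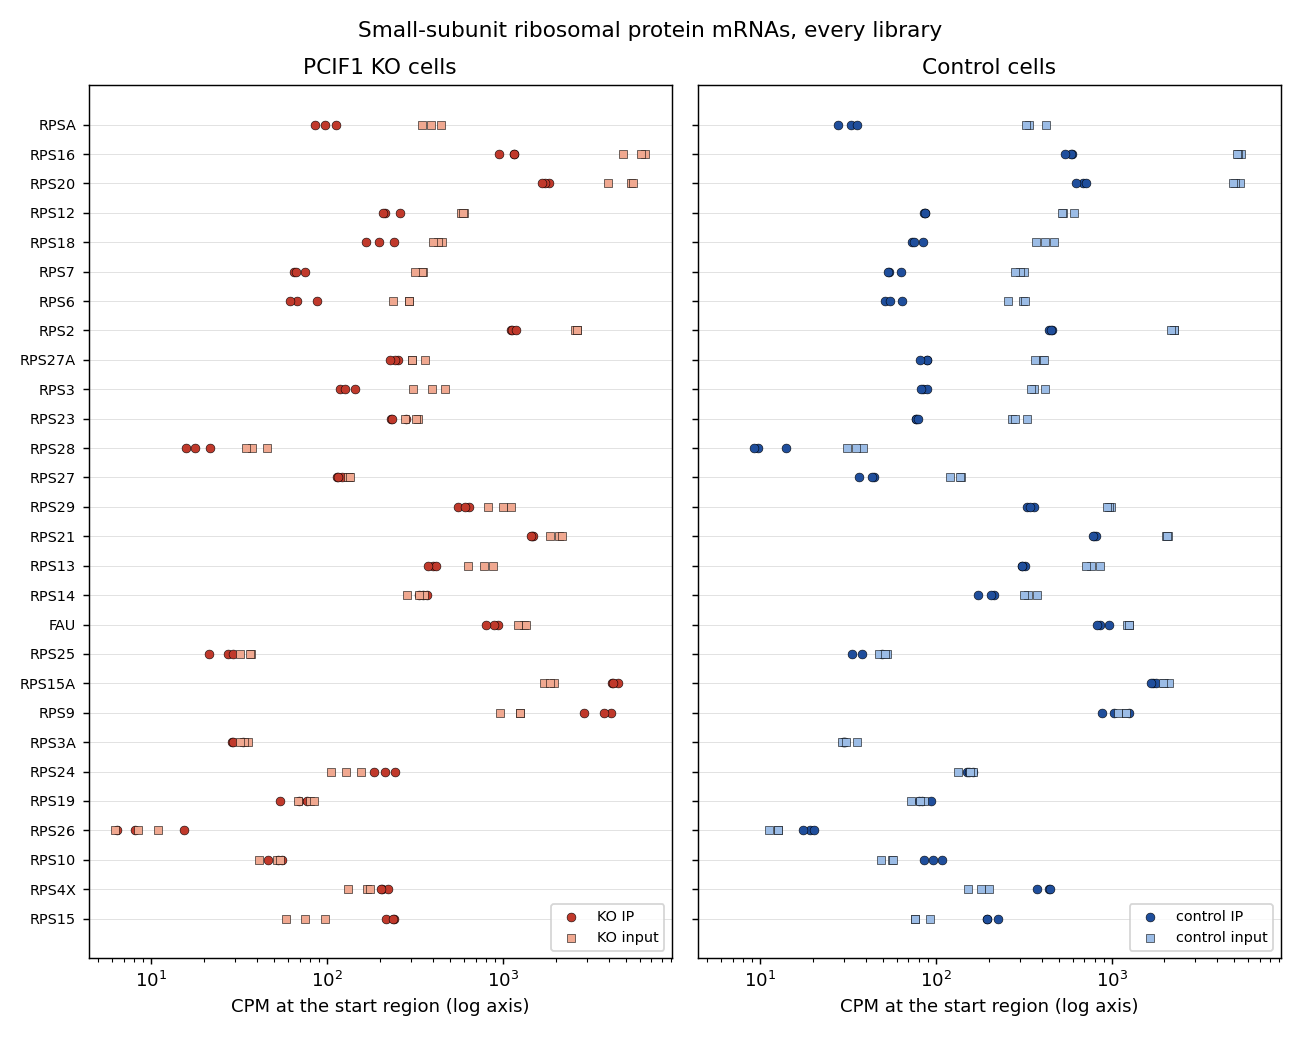
Each point is the CPM of 1 library on a log axis, for KO cells at the left and control cells at the right, with IPs as circles and inputs as squares. Members run from the most depleted in control IPs (RPSA) at the top to the most enriched (RPS15) at the bottom, and the gap between circles and squares at the top is narrower in KO cells.

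The first comparison asked which small-subunit mRNAs the antibody enriched or depleted in control cells. RPSA, a protein at the mRNA exit side also known as the laminin receptor, was depleted the most, with a log2 difference IP minus input of -3.50 ± 0.13 (SE of the limma fit, adjusted p = 6.54e-14). RPS16 (-3.19 ± 0.11), RPS20 (-2.92 ± 0.11), RPS12 (-2.68 ± 0.10) and RPS18 (-2.43 ± 0.12) followed. Only RPS15 (1.34 ± 0.14), RPS4X (1.24 ± 0.12) and RPS10 (0.84 ± 0.13) were called higher in the IP, at an adjusted p under 0.05 over all genes. Of 28 members, 19 were lower, where 28.2% of all genes were, and 3 were higher, where 27.7% of all genes were. The members' median was -1.43, and that of all genes -0.01. With libraries centred on large-subunit mRNAs, all genes had a median of 0.88 and the members one of -0.54. Then 11 members were higher and 16 lower, where 8578 and 1363 of all 16009 genes were. Of the genes called, 86.3% were higher (49.5% as reported). RPS14, RPS15A and FAU turned to values above 0. RPS3A, RPS9, RPS19, RPS24, RPS25 and RPS26 were not called, with values from -0.35 (RPS25) to 0.64 (RPS26), next to which stood RPS19 (0.11 ± 0.13).

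In KO cells the same antibody depleted most members as well, with a median nearer to 0. RPS16 (-2.40 ± 0.11), RPS7 (-2.31 ± 0.10), RPSA (-1.99 ± 0.13), RPS6 (-1.93 ± 0.13) and RPS3 (-1.58 ± 0.12) were the most depleted. At the other end, RPS9 (1.63 ± 0.14), RPS15 (1.62 ± 0.14), RPS15A (1.23 ± 0.09), RPS24 (0.72 ± 0.13) and RPS4X (0.42 ± 0.12) were enriched over input. Of 28 members, 17 were lower, where 31.0% of all genes were, and 5 were higher, where 28.4% were. The median of the members was -0.46 and that of all genes -0.07. With libraries centred on large-subunit mRNAs the medians were -0.09 for members and 0.30 for all genes, with 65.6% of called genes higher (47.8% as reported). RPS23 then turned to 0.06, and the calls of RPS21, RPS25, RPS27A and FAU ended. The call of RPS23 also ended without KO input 1, KO IP 1 or KO IP 2 (adjusted p = 0.0502 to 0.0567), and that of RPS25 without KO input 1, KO input 2 or KO IP 3 (adjusted p = 0.0521 to 0.0920).

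The order of the members was much alike in both genotypes. Over the 28 members, which are genes and not replicates, KO and control enrichment gave Pearson r 0.83 and Spearman rho 0.87. These comparisons share no library.

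**Figure D3:**
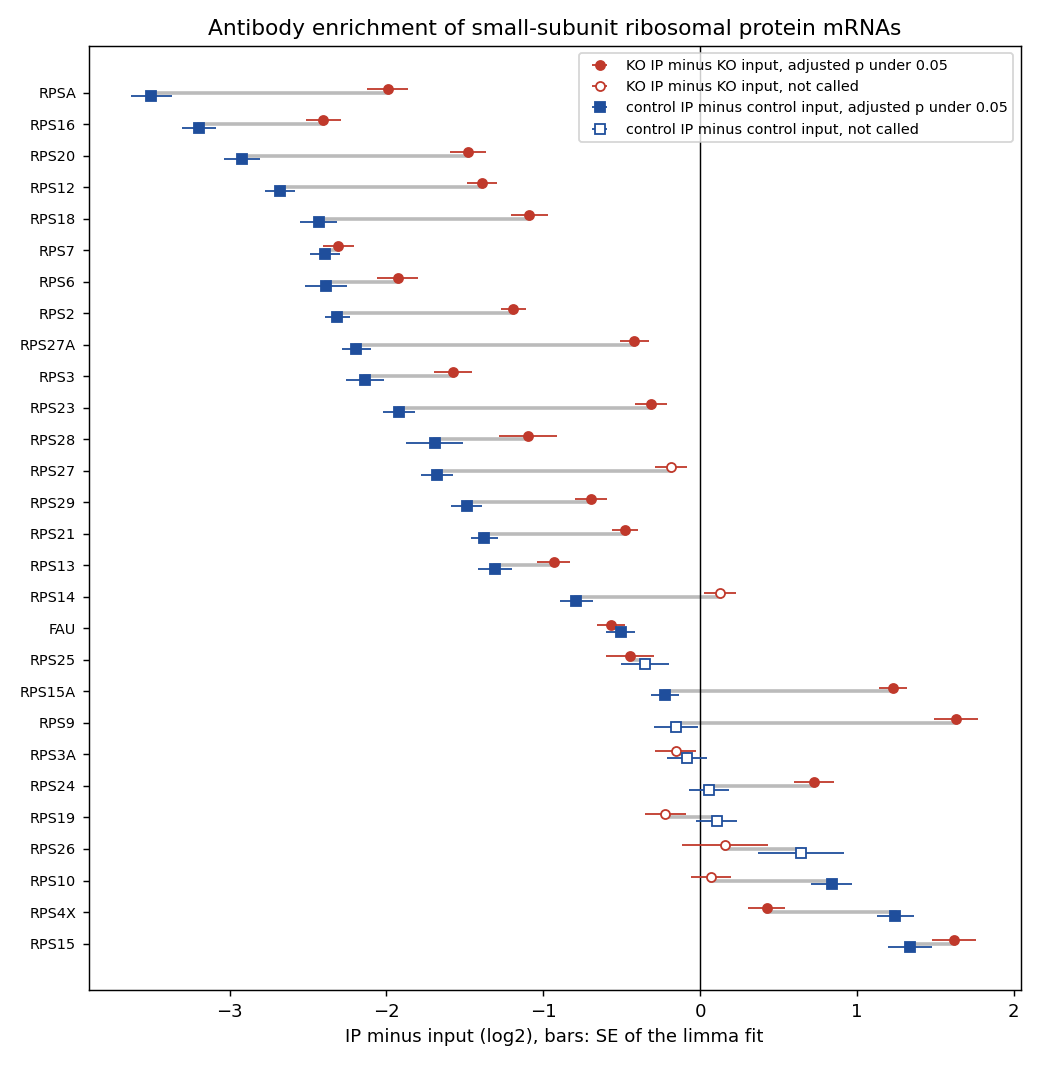
The log2 difference IP minus input is shown for each member with the SE of the limma fit, for KO cells (circles) and control cells (squares), joined by a grey line. Filled symbols had an adjusted p under 0.05, and most circles lie to the right of their square, with RPS4X, RPS10, RPS19 and RPS26 among those that lie to the left.

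The difference of these enrichments, KO minus control, asks which members depended on genotype. A positive value covers less depletion in KO cells as well as more enrichment there. RPS9 (1.79 ± 0.20, adjusted p = 2.11e-06), RPS27A (1.77 ± 0.13), RPS23 (1.61 ± 0.14), RPSA (1.505 ± 0.18) and RPS27 (1.49 ± 0.14) had the largest positive differences. The most negative were RPS4X (-0.82 ± 0.17, adjusted p = 0.000945), RPS10 (-0.77 ± 0.18, adjusted p = 0.00331), RPS26 (-0.49 ± 0.39), RPS19 (-0.33 ± 0.18) and RPS25 (-0.10 ± 0.22), and of these RPS4X and RPS10 passed the test. Of 28 members, 16 were called higher in KO, where 13.0% of all genes were, and 2 lower, where 15.8% were. The members' median was 0.73 and that of all genes -0.06. When libraries were centred on large-subunit mRNAs, the medians were 0.21 for members and -0.58 for all genes. Then 10 members were called higher and 5 lower, where 761 and 5269 of all 16009 genes were. Of the genes called, 12.6% were higher (45.2% as reported). Under that centring the calls of RPS3, RPS14, RPS16, RPS21, RPS24 and RPS29 ended, while RPS3A (-0.59), RPS19 (-0.85) and FAU (-0.58) became calls for lower enrichment in KO cells.

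The inputs were compared to see whether the genotypes differed in the RNA before the antibody. By limma, 0 of the 28 members were higher in KO inputs, where 5.56% of all genes were, and 1, RPS25, was lower, where 5.67% of all genes were. At an unadjusted p under 0.05, 1 member was higher and 2 were lower, and voom weights called 1 higher and 2 lower. RPS25, a protein needed for initiation at some viral internal ribosome entry sites, fell by 0.53 on the log2 scale (SE 0.15, adjusted p = 0.0306). That call ended when any 1 of the KO or control inputs was left out (adjusted p = 0.0539 to 0.110) and under centring on large-subunit mRNAs (-0.50, adjusted p = 0.125). RPS27A (-0.29 ± 0.09, adjusted p = 0.0513), RPS2 (0.23 ± 0.08, adjusted p = 0.0765) and RPS26 (-0.55 ± 0.27, adjusted p = 0.231) did not pass. The other low members were RPS24 (-0.22) and RPS4X (-0.18), and the highest after RPS2 were RPS7 (0.18), RPS28 (0.15), RPS16 (0.12) and RPSA (0.12). RPS27A passed without KO input 2 (-0.37, adjusted p = 0.0236), KO IP 1 (adjusted p = 0.0484) or KO IP 3 (adjusted p = 0.0367). The members' median was -0.02.

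The IPs themselves, compared between genotypes, gave 20 members higher in KO IPs, where 23.0% of all genes were, and 5 lower, where 26.0% were. This comparison shares its IP libraries with the difference of enrichment. RPS9 (1.76), RPS23 (1.67), RPSA (1.62), RPS27 (1.499) and RPS27A (1.48) were the highest. The lower members were RPS26 (-1.04), RPS4X (-0.996), RPS10 (-0.91), RPS25 (-0.62) and RPS19 (-0.38), and the call of RPS19 ended without control IP 1 (adjusted p = 0.0974) or KO IP 3 (adjusted p = 0.131). The median was 0.78, or 0.28 when libraries were centred on large-subunit mRNAs, where 18.0% of called genes were higher (46.9% as reported). Under that centring RPS6, RPS7, RPS13 and RPS24, called higher, turned to values below 0 that did not pass, the calls of RPS3 (0.10, adjusted p = 0.550) and RPS28 (0.26, adjusted p = 0.326) ended, and FAU was called lower (-0.50, adjusted p = 0.00583). The call of RPS6 also ended without KO IP 3 (0.19), KO input 2 (0.34), control IP 1 (0.27) or control IP 3 (0.32). That of RPS7 ended without KO IP 2 (0.20), control IP 1 (0.23) or control IP 3 (0.22).

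**Figure D4:**
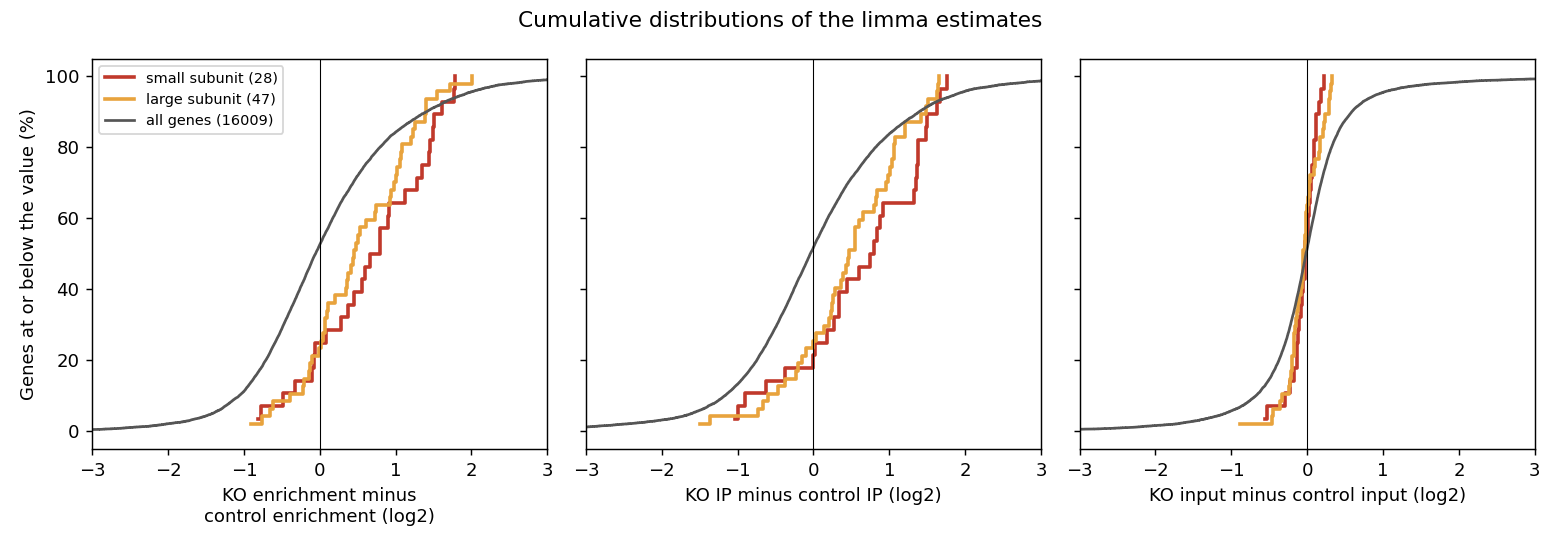
Each curve gives the percentage of genes at or below a log2 estimate, for small-subunit mRNAs (28), large-subunit mRNAs (47) and all genes (16009), with the difference of enrichment at the left, KO IP minus control IP in the middle and KO input minus control input at the right. Medians of the small-subunit mRNAs are 0.73, 0.78 and -0.02 in that order.

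Members that line the mRNA channel and the decoding centre are described first. RPS2 and RPS3 sit at the channel's entry. RPS2 gave 1114, 1134 and 1194 CPM in KO IPs and 2648, 2566 and 2644 CPM in KO inputs, against 438, 459 and 454 CPM in control IPs and 2277, 2268 and 2171 CPM in control inputs. The KO IPs lay above the control IPs and below the inputs of either genotype, so that depletion was -1.19 ± 0.08 in KO and -2.31 ± 0.08 in control cells (difference 1.12 ± 0.11, adjusted p = 8.12e-07). RPS3 gave 144, 118 and 126 CPM in KO IPs and 467, 394 and 309 CPM in KO inputs, against 84.6, 89 and 82.8 CPM in control IPs and 421, 362 and 348 CPM in control inputs. Every IP of RPS3 lay below every input, and every KO IP above every control IP. Its difference of 0.56 ± 0.18 passed (adjusted p = 0.0209), but not without control input 1 (adjusted p = 0.0642), KO input 3 (adjusted p = 0.0514) or KO IP 1 (adjusted p = 0.0523). Nor did it pass with no trend (adjusted p = 0.0934) or with libraries centred on large-subunit mRNAs (0.04, adjusted p = 0.892).

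RPS23 lies at the decoding centre and RPS9, in the body of the subunit, bears on decoding accuracy. RPS23 gave 231, 235 and 280 CPM in KO IPs and 328, 322 and 277 CPM in KO inputs, against 77.4, 77.2 and 79.3 CPM in control IPs and 332, 273 and 284 CPM in control inputs. The KO IPs overlapped the KO inputs, while all control IPs lay below all other libraries. RPS9 gave 4135, 3785 and 2886 CPM in KO IPs and 1253, 1251 and 966 CPM in KO inputs, against 1262, 1038 and 880 CPM in control IPs and 1202, 1216 and 1085 CPM in control inputs. In KO cells all IPs stood above all inputs, a log2 enrichment of 1.63 ± 0.14 (adjusted p = 5.22e-09), whereas control IPs overlapped control inputs (-0.15 ± 0.14, adjusted p = 0.372). RPS9 (chromosome 19, 54200809 to 54249003, hg38) has a TOP start in the annotation, as printed above. RPS15, a head protein whose tail reaches towards the decoding centre, was enriched in both genotypes. RPS15 gave 242, 216 and 238 CPM in KO IPs and 97.9, 75 and 58.5 CPM in KO inputs, against 196, 196 and 227 CPM in control IPs and 93.3, 75.9 and 76.3 CPM in control inputs. Its IPs overlapped between genotypes, with a difference of 0.28 ± 0.20 that missed the threshold (adjusted p = 0.314, 95% interval -0.13 to 0.70). RPS15 (chromosome 19, 1438358 to 1440495, hg38) is the member whose start has a C followed by purines.

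Several head proteins were among the most depleted members. RPS16 reaches with its tail towards the peptidyl-tRNA, and RPS18 and RPS12 belong to the head as well. RPS16 gave 1160, 1157 and 955 CPM in KO IPs and 6458, 6080 and 4814 CPM in KO inputs, against 599, 590 and 542 CPM in control IPs and 5427, 5249 and 5155 CPM in control inputs. RPS12 gave 213, 208 and 260 CPM in KO IPs and 579, 601 and 594 CPM in KO inputs, against 86.7, 85.6 and 87.1 CPM in control IPs and 612, 529 and 524 CPM in control inputs. RPS18 gave 197, 167 and 242 CPM in KO IPs and 450, 427 and 399 CPM in KO inputs, against 73.7, 84.3 and 75 CPM in control IPs and 472, 370 and 419 CPM in control inputs. In all 3, every IP lay below every input of its genotype and every KO IP above every control IP. The differences were 0.79 ± 0.16 for RPS16 (adjusted p = 0.000763), 1.29 ± 0.13 for RPS12 (adjusted p = 1.08e-06) and 1.34 ± 0.17 for RPS18 (adjusted p = 8.15e-06). RPS12 hosts 3 small nucleolar RNAs (snoRNAs) in its introns, of 7 members that host any. On the opposite strand, the gene record of VPS52 covers the start of RPS18 or comes within 200 bases of it.

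RPS20 and RPS10 are ubiquitinated when ribosomes collide, and here they went opposite ways. RPS20 gave 1832, 1736 and 1669 CPM in KO IPs and 5345, 5474 and 3945 CPM in KO inputs, against 685, 711 and 626 CPM in control IPs and 5349, 5057 and 4899 CPM in control inputs. Depletion of RPS20 was -1.48 ± 0.11 in KO and -2.92 ± 0.11 in control cells, a difference of 1.44 ± 0.16 (adjusted p = 2.04e-06). RPS10 gave 52.6, 55.6 and 46.4 CPM in KO IPs and 52.3, 54.2 and 41.3 CPM in KO inputs, against 108, 86.1 and 96.3 CPM in control IPs and 56.2, 57.1 and 48.8 CPM in control inputs. The control IPs of RPS10 lay above all other libraries, while KO IPs and KO inputs overlapped. The readthrough gene RPS10-NUDT3, on the same strand, covers the start of RPS10 or comes within 200 bases of it. Its enrichment was 0.21 in KO and 1.06 in control cells, and reads of this pair cannot be told apart.

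RPS19, mutated in Diamond-Blackfan anaemia, and the zinc-binding RPS29 are head proteins too. RPS19 gave 69.2, 77.5 and 53.9 CPM in KO IPs and 79.8, 84 and 68.3 CPM in KO inputs, against 94.2, 80.6 and 83.3 CPM in control IPs and 85.8, 81.6 and 72.5 CPM in control inputs. For RPS19, IPs and inputs overlapped within each genotype, and neither enrichment passed. Without KO IP 2, however, RPS19 was called lower in KO IPs than in KO inputs (-0.34, adjusted p = 0.0429). RPS29 gave 641, 556 and 611 CPM in KO IPs and 1114, 1001 and 829 CPM in KO inputs, against 330, 363 and 342 CPM in control IPs and 989, 968 and 948 CPM in control inputs. RPS29 was lower in the IP in both genotypes, and its KO IPs lay above its control IPs. Its difference of enrichment was 0.79 ± 0.14 (adjusted p = 0.000277).

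On the platform and the exit side of the mRNA channel lie RPSA, RPS14, RPS26 and RPS28. RPSA gave 97.7, 85.8 and 113 CPM in KO IPs and 444, 391 and 346 CPM in KO inputs, against 32.9, 35.5 and 27.7 CPM in control IPs and 425, 339 and 325 CPM in control inputs. RPSA (chromosome 3, 39406716 to 39426255, hg38) hosts 2 snoRNAs, and its control IPs lay below all other libraries. RPS14 gave 354, 334 and 373 CPM in KO IPs and 357, 332 and 285 CPM in KO inputs, against 215, 206 and 175 CPM in control IPs and 376, 335 and 317 CPM in control inputs. RPS14, whose loss is tied to the anaemia of the 5q- syndrome, was depleted in control cells (-0.79 ± 0.10, adjusted p = 2.02e-06, but 0.10 with libraries centred on large-subunit mRNAs), while KO IPs and KO inputs overlapped. The difference was 0.92 ± 0.15 (adjusted p = 0.000103).

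RPS26 and RPS28 had few reads. RPS26 gave 15.3, 6.41 and 8.09 CPM in KO IPs and 8.4, 10.9 and 6.25 CPM in KO inputs, against 19.2, 20.3 and 17.6 CPM in control IPs and 12.7, 12.7 and 11.2 CPM in control inputs. Control IPs of RPS26 did not overlap control inputs, but the enrichment of 0.64 ± 0.27 just missed (adjusted p = 0.0527), and it passed without KO input 3 or any 1 of the KO IPs (adjusted p = 0.0175 to 0.0458). That enrichment also passed under every alternative that kept all libraries, apart from the fit with no trend. The adjusted p then ran from 5.6e-05 (centred on large-subunit mRNAs) to 0.0393 (replicate block). KO IP 1 stood above the other KO IPs of RPS26. RPS28 gave 15.8, 21.5 and 17.8 CPM in KO IPs and 37.4, 34.7 and 45.5 CPM in KO inputs, against 14, 9.78 and 9.21 CPM in control IPs and 38.8, 31.2 and 35.4 CPM in control inputs. RPS28 has an annotated start with A and was depleted, with an enrichment of -1.10 in KO and -1.69 in control cells. Its difference of 0.60 ± 0.26 did not pass (adjusted p = 0.0909) and did so without control IP 1 (0.79, adjusted p = 0.0258). On the opposite strand, NDUFA7 covers the start of the RPS28 gene record or comes within 200 bases of it. NDUFA7 was enriched by 0.77 in KO and 1.53 in control cells.

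RPS27A and FAU are made as fusions, RPS27A with ubiquitin and FAU with a ubiquitin-like protein, and they differed. RPS27A gave 254, 243 and 228 CPM in KO IPs and 306, 362 and 304 CPM in KO inputs, against 89.5, 88.8 and 81.3 CPM in control IPs and 409, 414 and 365 CPM in control inputs. KO IPs lay below KO inputs and control IPs below all other libraries, and the difference was 1.77 ± 0.13 (adjusted p = 3.14e-08). FAU gave 940, 896 and 798 CPM in KO IPs and 1319, 1359 and 1222 CPM in KO inputs, against 964, 858 and 828 CPM in control IPs and 1262, 1232 and 1264 CPM in control inputs. For FAU the IPs overlapped between genotypes and depletion was -0.57 ± 0.09 in KO and -0.51 ± 0.09 in control cells, and the control value turned to 0.38 when libraries were centred on large-subunit mRNAs. FAU's difference, -0.06 ± 0.13, missed the threshold (adjusted p = 0.757, 95% interval -0.33 to 0.21). MRPL49 on the opposite strand covers the start of FAU or comes within 200 bases of it. MRPL49 was enriched by 0.48 in KO and 1.26 in control cells.

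Among the other members, RPS6 is the substrate of S6 kinase and RPS7 binds the p53 regulator MDM2. RPS6 gave 67.8, 61.9 and 88.2 CPM in KO IPs and 292, 292 and 239 CPM in KO inputs, against 51.3, 64.6 and 55.2 CPM in control IPs and 314, 257 and 323 CPM in control inputs. RPS7 gave 64.8, 74.6 and 66.5 CPM in KO IPs and 354, 348 and 317 CPM in KO inputs, against 54.3, 63.6 and 53.6 CPM in control IPs and 317, 300 and 281 CPM in control inputs. Every IP of both lay below every input of its genotype, and for RPS6 the IPs overlapped between genotypes. RPS7 had a difference of 0.08 ± 0.14 (95% interval -0.21 to 0.38, adjusted p = 0.695). RPS6 had 0.46 ± 0.19 (adjusted p = 0.0763) and passed without control input 2, control IP 2 or KO IP 2 (0.55 to 0.56, adjusted p = 0.0346 to 0.0489).

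RPS4X is encoded on the X chromosome and was enriched in control cells and, less so, in KO cells. RPS4X gave 206, 222 and 204 CPM in KO IPs and 169, 175 and 131 CPM in KO inputs, against 377, 438 and 449 CPM in control IPs and 202, 153 and 180 CPM in control inputs. All control IPs lay above all other libraries, and all KO IPs above the KO inputs. Enrichment was 0.42 ± 0.12 in KO (adjusted p = 0.00418) and 1.24 ± 0.12 in control cells. RPS4X (chromosome X, 72255679 to 72277248, hg38) starts with A in RefSeq, as printed above. On the opposite strand, the gene record of PIN4 covers the start of RPS4X or comes within 200 bases of it. PIN4 was enriched by 3.13 in KO and 3.09 in control cells (difference 0.04, adjusted p = 0.922). Where these neighbours start was not checked, and the strand setting of the counting is not given in the sources used here. Whether reads of RPS4X count for PIN4, or the reverse, is therefore not known. The same holds for the other pairs on opposite strands.

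RPS15A and RPS24, like RPS9, were enriched over input in KO cells, and more so than in control cells. RPS15A gave 4531, 4203 and 4249 CPM in KO IPs and 1710, 1969 and 1866 CPM in KO inputs, against 1720, 1792 and 1680 CPM in control IPs and 1992, 2116 and 1967 CPM in control inputs. KO IPs lay above all other libraries, an enrichment of 1.23 ± 0.09 (adjusted p = 4.66e-10). Control IPs lay just below control inputs (-0.23 ± 0.09, adjusted p = 0.0378), a call that ended when any control input, control IP 1 or control IP 3 was left out (adjusted p = 0.0552 to 0.138), and the value turned to 0.66 when libraries were centred on large-subunit mRNAs. The difference was 1.46 ± 0.13 (adjusted p = 1.53e-07). A gene with no symbol, on the same strand, covers the start of RPS15A or comes within 200 bases of it. Its enrichment was -0.09 in KO and -1.39 in control cells. PIK3C2A (2.42 in KO, 1.53 in control cells) lies likewise at the start of RPS13, and SYVN1 (-0.98 and -0.62) at that of FAU. Whether reads are shared within these same-strand pairs is not known. RPS24 gave 213, 185 and 243 CPM in KO IPs and 156, 129 and 106 CPM in KO inputs, against 151, 155 and 163 CPM in control IPs and 163, 133 and 156 CPM in control inputs. RPS24 had 0.72 ± 0.13 in KO and 0.06 ± 0.13 in control cells, a difference of 0.67 ± 0.18 (adjusted p = 0.00846). The call of that difference ended with no trend (adjusted p = 0.0564). It also ended with libraries centred on large-subunit mRNAs (0.15, adjusted p = 0.545).

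RPS27, a zinc-binding protein, RPS21 and RPS13 were depleted in control cells. Their values lay nearer to 0 in KO cells, where RPS27 was not called (-0.18 ± 0.10, adjusted p = 0.125). For RPS13 the difference between genotypes did not pass the threshold. RPS27 gave 122, 114 and 115 CPM in KO IPs and 133, 131 and 135 CPM in KO inputs, against 44.3, 36.5 and 43.5 CPM in control IPs and 140, 137 and 120 CPM in control inputs. RPS21 gave 1471, 1487 and 1439 CPM in KO IPs and 2102, 2186 and 1854 CPM in KO inputs, against 790, 820 and 788 CPM in control IPs and 2095, 2052 and 2080 CPM in control inputs. RPS13 gave 403, 417 and 375 CPM in KO IPs and 880, 787 and 635 CPM in KO inputs, against 321, 310 and 311 CPM in control IPs and 865, 759 and 716 CPM in control inputs. The differences were 1.49 ± 0.14 for RPS27 (adjusted p = 4.89e-07), 0.90 ± 0.12 for RPS21 (adjusted p = 1.72e-05) and 0.37 ± 0.15 for RPS13 (adjusted p = 0.0693). RPS13 passed without KO input 1 (0.48, adjusted p = 0.0230) or KO IP 3 (0.42, adjusted p = 0.0477), and with the column number as a replicate block (adjusted p = 0.0181). RPS3A and RPS25 had low levels. RPS3A gave 33.4, 28.8 and 29.3 CPM in KO IPs and 35.7, 33.9 and 32.2 CPM in KO inputs, against 30.4, 30 and 29.8 CPM in control IPs and 35.8, 29.4 and 30.7 CPM in control inputs. IPs and inputs of RPS3A overlapped in both genotypes, and its difference was -0.07 ± 0.18 (95% interval -0.45 to 0.31). RPS25 gave 27.5, 29.3 and 21.3 CPM in KO IPs and 37.1, 36.3 and 32.2 CPM in KO inputs, against 49.4, 37.9 and 33.3 CPM in control IPs and 52.5, 47.7 and 51.7 CPM in control inputs. All libraries of RPS25 from KO cells lay below all control inputs. Its enrichment was -0.45 ± 0.15 in KO and -0.35 ± 0.15 in control cells, and the control value passed without control IP 1 (-0.51, adjusted p = 0.0109) or KO IP 3 (adjusted p = 0.0334). The control value also passed after quantile normalization, with 1 or 5 CPM added, with the filter, voom weights or the replicate block (adjusted p = 0.0230 to 0.0492). With libraries centred on large-subunit mRNAs that value turned to 0.54 (adjusted p = 0.0159). TRAPPC4 on the opposite strand covers the start of RPS25 or comes within 200 bases of it. TRAPPC4 was enriched by 0.50 in KO and 0.94 in control cells. Other neighbours on the opposite strand were depleted. They were LRR1 at RPS29 (-1.57 in KO, -1.085 in control cells) and a gene with no symbol at RPS21 (-1.33 and -0.79). SNHG9 at RPS2, VPS52 at RPS18 and CLHC1 at RPS27A were not called in control cells. In KO cells VPS52 (0.58) and CLHC1 (1.10) were enriched.

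Both classes of annotated start held depleted and enriched members. Among the 18 with a TOP start, enrichment ran from -2.40 (RPS16) to 1.63 (RPS9) in KO cells, with a median of -0.46, and from -3.50 (RPSA) to 0.84 (RPS10) in control cells, with a median of -1.34. Among the 7 with another start it ran from -2.31 (RPS7) to 1.62 (RPS15) in KO cells and from -2.39 (RPS7) to 1.34 (RPS15) in control cells, with medians of -0.42 and -1.49. Of the 3 members with an A start, RPS4X was enriched in control cells, and RPS28 and RPS27A were depleted. The difference of enrichment had a median of 0.73 for TOP starts, with 11 of 18 called higher in KO and RPS10 called lower. For the 7 other starts the median was 0.28, with RPS27A and RPS29 called higher and RPS4X lower. Of all genes, 13.0% were called higher and 15.8% lower. The classes were not tested against each other. For RPS27A and RPS29 the annotated starts differ between RefSeq and GENCODE, so that their class is not settled. The length of the pyrimidine run gave Spearman rho 0.08 with the difference over the 18 TOP starts.

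Input level went with enrichment across members. Over the 28 members, which share libraries and depth, the mean log2 CPM in control inputs gave Pearson r -0.53 and Spearman rho -0.52 with control enrichment, and 0.56 and 0.53 with the difference of enrichment. With KO enrichment they were -0.28 and -0.37. Control input enters control enrichment and the difference of enrichment as well as the level they were set against, and its part in these values was not tested.

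**Figure D5:**
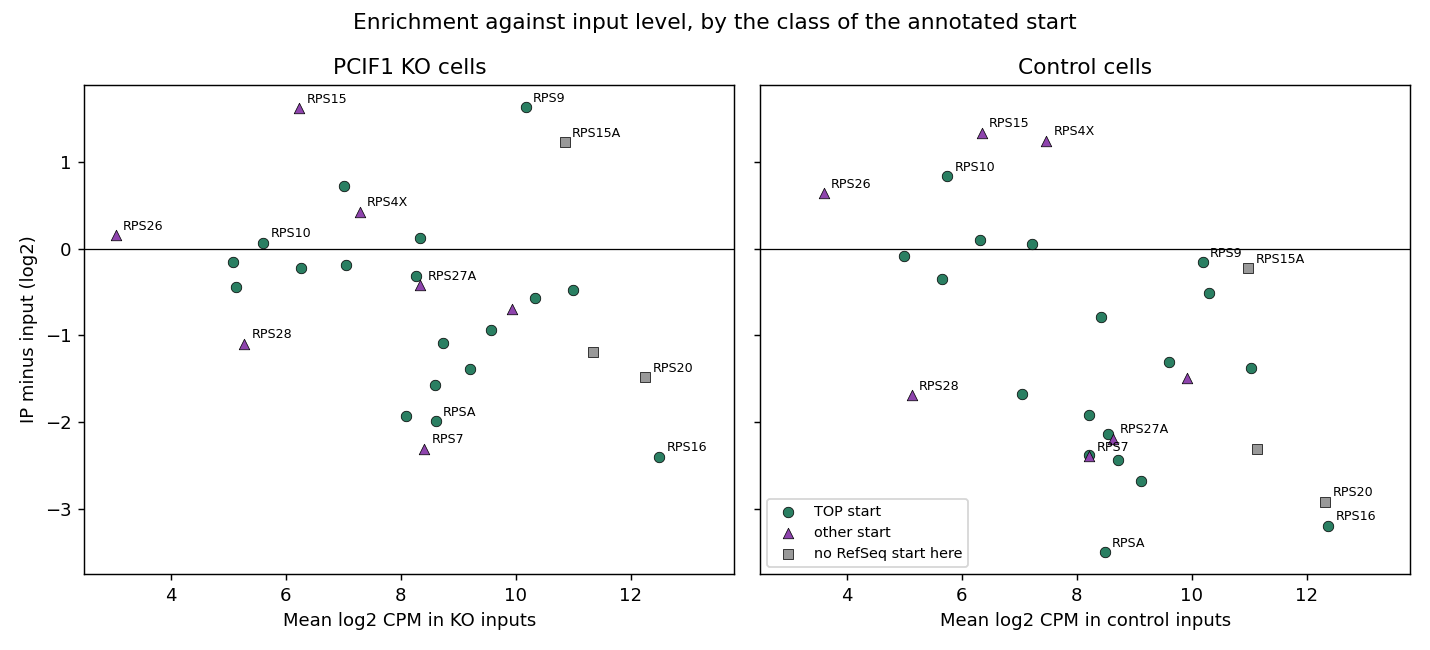
Each point is a member, with its mean log2 CPM in the inputs of the same genotype on the x axis and IP minus input (log2) on the y axis, for KO cells at the left and control cells at the right, and the symbol gives the class of the annotated start. TOP starts and other starts both cover the range from depleted to enriched, with RPS9 (1.63) and RPS15A (1.23) above 0 in KO cells.

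Other parts of the ribosome and its assembly were set beside these mRNAs as counts, against 13.0% of all genes called higher and 15.8% called lower in the difference of enrichment. Large-subunit mRNAs had 22 of 47 called higher and 2 lower in the difference of enrichment, with a median of 0.46, and RPL5 (1.71) and RPL27A (1.54) had their smallest p-values. Their own enrichment had a median of -0.73 in KO cells, with 30 lower and 8 higher (31.0% and 28.4% of all genes), and -1.06 in control cells, with 36 lower and 1 higher (28.2% and 27.7% of all genes). The other TOP mRNAs had 11 of 20 called higher, with a median of 0.64, the snoRNA host gene GAS5 (1.84) and the nucleophosmin gene NPM1 (1.22) first among them. Factors that assemble the 40S subunit had 6 of 39 called higher and 13 lower, with a median of -0.33. NOP58 (-1.53), a core protein of box C/D snoRNPs, was less enriched in KO cells, and NOP14 (1.03) more so. Proteins of the small subunit of the mitochondrial ribosome had 3 of 33 higher and 12 lower, with a median of -0.30, and MRPS23 (-1.43) and MRPS16 (-1.09) were examples. Medians of these lists stand beside -0.06 for all genes.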

How the data were processed

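The members and gene lists were chosen with earlier results of these data known. The authors deposited 1 table of log2 CPM at the transcription start of 16009 genes. Per the submitters' processing notes, the tools were edgeR 3.12.1 in R 3.3.3, featureCounts, deepTools 3.0.2, SAMtools 1.7 and HISAT2 2.0.4, and the build was hg38, with no roles stated. For the window, strand setting, filters and library scaling, the sources used here say nothing. Each column shows an added count of 0.25, scaled to library size, with which 100% of values became whole reads within 0.01. A log2 difference therefore understates changes of genes with few reads. CPM in the text is 2 to the power of the deposited log2 value. Reads carry no molecular identifiers, so copies of 1 molecule may count more than once.

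Columns carry numbers, and the labels letters that nothing ties to them, so columns were assigned to groups only. No pair of libraries within a group agreed within sampling noise (chi-square over genes). The 18 first-stage libraries were not used here. Group means of the 12 libraries were fitted with limma 3.58.1 (R 4.3.3), using the trend of variance on mean and no block. Calls are two-sided, at p under 0.05 after Benjamini-Hochberg adjustment over all 16009 genes, with no filter. The fit was checked on counts drawn from the control input profile with known changes. Names and positions are from GENCODE 44 (hg38), start sequences from RefSeq (GRCh38.p14). For each comparison the members with the 5 highest and 5 lowest estimates are named with their values. In addition, all 28 members are described by role, a choice made after their values were seen. Of each other list, the genes with the smallest p in the comparison are named. Alternatives were 3 scalings, 2 added constants (1 and 5 CPM), a filter (genes at 3 or more on the log2 scale in 3 or more libraries), no trend, voom weights on the recovered reads, fits on the compared groups alone, a replicate block and leaving out each library.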

Additional observations from a re-analysis of the deposited data

Results flagged for a closer look

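For 18 of the 28 mRNAs the effect of the antibody differed between KO and control cells by the test of the difference itself (limma, adjusted p under 0.05), 16 of them higher in KO, where 13.0% of all genes were, and 2 lower, where 15.8% were. Values are KO enrichment minus control enrichment on the log2 scale. Higher in KO were RPS9 (1.79), RPS27A (1.77), RPS23 (1.61), RPSA (1.505), RPS27 (1.49), RPS15A (1.46), RPS20 (1.44), RPS18 (1.34) and RPS12 (1.29). So were RPS2 (1.12), RPS14 (0.92), RPS21 (0.90), RPS29 (0.79), RPS16 (0.79), RPS24 (0.67) and RPS3 (0.56). RPS4X (-0.82) and RPS10 (-0.77) were lower in KO. RPS15A is the member whose enrichment was called in opposite directions, above input in KO cells (1.23) and below it in control cells (-0.23). The control call did not hold when any control input, control IP 1 or control IP 3 was left out, with no trend, with 5 CPM added or with libraries centred on all genes, and the value turned to 0.66 when they were centred on large-subunit mRNAs.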

How the results depend on the processing

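Each of 140 member results (28 mRNAs in 5 comparisons) was recomputed under 10 alternatives and without each of 12 libraries where the fit allowed. Of 3052 values, 2876 kept direction and side of the threshold, 58 lost the call and 56 gained it. Another 50 changed sign without passing the test either way, 10 of them with libraries centred on large-subunit mRNAs, 10 under the other scalings and 30 with a library left out. The remaining 12 changed sign and were called before or after. These 12 came from centring on large-subunit mRNAs, which sets the median of those mRNAs equal in every library. For control enrichment RPS3A became 0.81, RPS9 0.74, RPS15A 0.66, RPS25 0.54, FAU 0.38 and RPS14 0.10. For KO enrichment RPS23 became 0.0557, and for KO IP minus control IP RPS3A became -0.48, RPS7 -0.23, RPS6 -0.16, RPS13 -0.15 and RPS24 -0.0487. That centring also gave 11 members higher and 16 lower in control enrichment (3 and 19 as reported), where 8578 and 1363 of all 16009 genes were. In the difference it gave 10 higher and 5 lower (16 and 2 as reported), where 761 and 5269 of all genes were. Its medians were -0.54 for control enrichment, -0.0926 for KO enrichment, 0.21 for the difference and 0.28 for the IPs. Other medians that moved beyond the spread between replicates were, for control enrichment, -1.33 with libraries centred on all genes and -1.65 after quantile normalization, -0.66 for KO enrichment after quantile normalization, and 0.68 for the IPs with 5 CPM added. Leaving out single libraries gave medians from 0.69 to 0.82 for the IPs and 0 to 2 members lower in KO inputs.

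For KO against control inputs, members higher were 1 with libraries centred on all genes, after quantile normalization, with voom weights and with the replicate block (0 as reported). Members lower were 2 with the filter, with 1 or 5 CPM added, after quantile normalization, with voom weights and with the replicate block, and 0 with either centring and with no trend (1 as reported). The cause was not tested. Deviations of columns of the same number gave correlations of -0.08 to 0.24 over 18 pairs of columns, 12 of them over 0.1. They ran from 0.10 to 0.24 for numbers 1 and 3, and from -0.08 to 0.09 for number 2. Columns of different numbers gave -0.31 to 0.14. The numbers may thus pair the libraries in part, which the reported fit, with no block, leaves out. The replicate block gave 17 higher and 2 lower in the difference, 4 higher and 20 lower in control enrichment, and the reported counts in KO enrichment and between the IPs. The 13 reads in the lowest KO IP of RPS26 limit what can be said of that gene.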
